A study of Mus musculus with 18 samples.

Results

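The proteasome genes described here are 43 of the 13784 genes measured in mouse cortex, taken as every gene whose symbol starts with Psma, Psmb, Psmc, Psmd, Psme, Psmf or Psmg followed by a digit, without the immunoproteasome subunits Psmb8, Psmb9 and Psmb10. The rule reads the symbol of a gene and none of its values. The pattern caught no gene outside the proteasome. It gave 7 subunits of the 20S alpha ring, 7 of the 20S beta ring, 6 ATPases and 11 non-ATPase subunits of the 19S particle, 3 assembly factors of the 19S base, 4 assembly chaperones of the 20S core, 4 activators and the inhibitor Psmf1. Psma8 and Psmb11, known as the testis and thymus forms of core subunits, were not in the tables. The name constitutive is loose for the activators Psme1 and Psme2, which are known to be induced by interferon.

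The proteasome is the main protease for ubiquitin-tagged proteins in the cytosol and nucleus. Its 20S core is a barrel of stacked alpha and beta rings whose catalytic sites lie on beta subunits, and the 19S particle binds ubiquitin chains, removes them and threads the unfolded protein into the barrel with its ATPases. In immune cells and in inflamed tissue, the catalytic beta subunits Psmb5, Psmb6 and Psmb7 can be replaced in newly built particles by the interferon-inducible subunits Psmb8, Psmb9 and Psmb10. When proteasome activity is blocked, mammalian cells are known to raise subunit transcription together through the transcription factor NRF1, the product of Nfe2l1.

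The study measured bulk RNA of dissected cortex in 4 groups of mice, to look for expression changes after loss of Chd8, a chromatin remodeller, from astrocytes, with and without neuroinflammation. The groups were control mice given saline (4 libraries), control mice given lipopolysaccharide (LPS, a bacterial cell-wall component that sets off innate immune responses; 5 libraries), mice with an astrocyte-specific conditional knockout of Chd8 (cKO) given saline (4 libraries) and cKO mice given LPS (5 libraries). LPS was given into the abdomen at 5 mg/kg to mice 4 to 6 months old, and brains were taken after 72 hours. The labels state neither the Cre driver nor the alleles of the controls, nor whether each library is 1 mouse, so the spread behind the tests may be partly technical. All values come from the authors' deposited tables for 3 comparisons: LPS against saline in controls, LPS against saline in cKO mice, and cKO against control after LPS. A gene is said to have risen or fallen where the false discovery rate (FDR) in the authors' deposited table is below 0.05. Group levels in CPM (read counts scaled to the size of the library) are estimates back-calculated from these tables. Values per library were not used here, so the depth of each library is unknown and whether single libraries of 2 groups overlap cannot be said.

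All 43 genes were expressed well enough to be tested, from an estimated 2.994 CPM for the chaperone Psmg4 in control saline cortex to 217.4 CPM for Psmd2 in control LPS cortex. In bulk tissue, fewer cells of a type and less RNA per cell cannot be told apart. Several facts of the whole tissue move with the groups, and their part in the results below was not tested. The summed level of 4 of 4 endothelial markers was 98.96 CPM in control saline and 159.6 CPM in control LPS cortex, against 99.05 and 145.6 CPM in cKO mice. That of the 5 microglial markers was 248.7 and 351.0 CPM in controls and 250.8 and 290.9 CPM in cKO mice. They did not all move 1 way: 4 of the 5 lay above 0 after LPS in controls and 3 in cKO mice. In the authors' deposited tables, 3 rose in controls, and in cKO mice 2 rose and P2ry12 fell (log2 fold change -0.58 ± 0.12, FDR = 0.0145). Of 7 striatal markers, 7 lay above 0 in the comparison of genotypes after LPS (median log2 difference 0.68). Their summed level was 337.7 CPM in control LPS and 498.1 CPM in cKO LPS cortex, against 387.5 and 424.5 CPM after saline. The 6 markers of cortical excitatory neurons summed to 1918 CPM in control saline, 2406 CPM in control LPS, 1942 CPM in cKO saline and 2350 CPM in cKO LPS cortex, and 0 of the 6 lay above 0 between genotypes after LPS. Of 6 astrocyte markers, Gfap rose (1.35 ± 0.12) and Aqp4 fell (-0.22 ± 0.05) after LPS in controls in the authors' deposited table. Slc1a2, Slc1a3 and Aqp4 fell in cKO mice, by 0.31, 0.45 and 0.48, in the authors' deposited table, where Gfap stood at 1.06 ± 0.34 (FDR = 0.0548). The 6 astrocyte markers summed to 3841 CPM in control saline and 3716 CPM in control LPS cortex. In cKO mice they summed to 4440 CPM after saline and 3917 CPM after LPS. The sums of the pan-neuronal and oligodendrocyte markers were 5247 to 5478 and 2046 to 2184 CPM. Among the pan-neuronal markers, Rbfox3 rose in cKO mice (0.58 ± 0.09, FDR = 0.00653) in the authors' deposited table. It stood at 0.39 ± 0.13 in controls (FDR = 0.0777), and Map2, Snap25 and Syt1 were not called after LPS in either genotype. The 3 choroid plexus markers in the tables, of 7, summed to 114.4 and 116.8 CPM in control and cKO saline cortex, against 11.4 and 22.15 CPM after LPS. None of the 3 rose or fell in the authors' deposited tables. Ttr, the highest of them, stood there at -4.03 ± 1.96 in controls (FDR = 0.206) and -2.83 ± 1.86 in cKO mice (FDR = 0.303). Leukocyte and erythroid markers were not in the tables. Of the sex-linked genes, Ddx3y (10.87 ± 2.63, FDR = 0.0351) and Uty (9.81 ± 2.45, FDR = 0.0377) rose after LPS in controls in the authors' deposited table. Neither was called after LPS in cKO mice or between genotypes after LPS. The labels do not give sex, so its part in the response of controls cannot be told apart from that of LPS. Chd8 itself rose after LPS in controls by 0.34 ± 0.08 in the authors' deposited table (FDR = 0.0312). In cKO mice it rose by 0.45 ± 0.07 (FDR = 0.00597). Between genotypes after LPS, Chd8 did not pass the test in the authors' deposited table (0.02 ± 0.05 SE on the log2 scale, FDR = 0.901). The RNA was of bulk cortex, so the level of Chd8 in astrocytes alone was not measured.

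After LPS in control cortex, 3 of the 43 proteasome genes fell (6.98%) and none rose, and all 3 are subunits of the 20S beta ring, per the authors' deposited table: Psmb5 (ENSMUSG00000022193), Psmb6 (ENSMUSG00000018286) and Psmb4 (ENSMUSG00000005779). Among all 13784 genes, 3.31% fell and 6.46% rose. The authors' F test gave an unadjusted p below 0.05 for 4 members above 0 and 11 below, against 16.2% and 12.7% of all genes. Psmb5 fell by 25.8%, Psmb6 fell by 17.5% and Psmb4 fell by 16.1%, on a linear scale.

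Psmb5 carries the chymotrypsin-like site of the core, the main target of proteasome inhibitor drugs. Its estimated level was 67.4 CPM in control saline, 50.03 CPM in control LPS, 61.9 CPM in cKO saline and 57.1 CPM in cKO LPS cortex. The control LPS group was the lowest of the 4. In the authors' deposited table it fell in controls by 0.43 ± 0.07 (SE) on the log2 scale (FDR = 0.00751). Psmb6 carries the caspase-like site, and its estimated levels in the same order were 70.5, 58.1, 66.3 and 64.0 CPM. It fell in controls by 0.28 ± 0.06 in the authors' deposited table (FDR = 0.0308). Psmb4 is a beta subunit without a catalytic site, estimated at 83.9, 70.5, 81.7 and 76.5 CPM. It fell in controls by 0.25 ± 0.07 in the authors' deposited table (FDR = 0.0418), and that call ended with the trend over transcript GC content and length removed (-0.24, adjusted p = 0.0568). For all 3 genes, the group given LPS was lower than the saline group in both genotypes, with the wider gap in controls. The annotation holds 4 pseudogenes named after members (Psmb5-ps, Psmb6-ps, Psmb6-ps2 and Psmb7-ps2), none of them in the tables, and whether reads were shared with these near-copies of Psmb5, Psmb6 and Psmb7 was not measured.

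**Figure D1:**
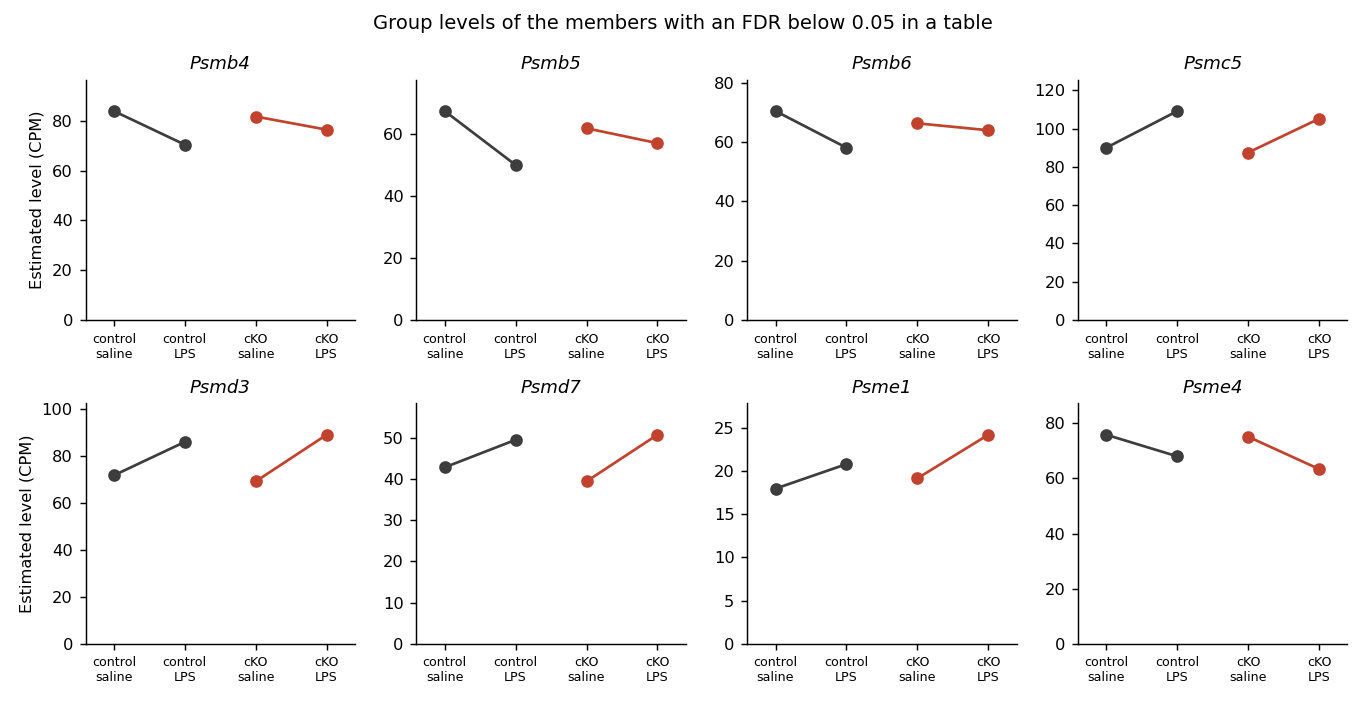
Estimated level in CPM (linear axes from 0) of the 8 members with an FDR below 0.05 in a deposited table, in the 4 groups (black, control; red, cKO; lines join saline to LPS within a genotype). Points are group estimates without error bars because values per library were not used; Psmb4, Psmb5 and Psmb6 were lowest in control LPS, and Psmd3, Psmd7, Psmc5 and Psme1 were higher after LPS in both genotypes.

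The sequences before the start sites of these 3 genes are shown because the genes fell together in controls. Each line gives the 250 bases before the annotated start, on the gene's own strand, from the RefSeq promoter table for build GRCm38.p6; the deposited tables were made on GRCm39. They are chr3:94886959-94887208 on the minus strand for Psmb4, chr14:54617996-54618245 on the minus strand for Psmb5, and chr11:70525107-70525356 on the plus strand for Psmb6. Capitals mark a match to TGACNNNGC, the core of the antioxidant response element that NRF1 and NRF2 are known to bind.
Psmb4: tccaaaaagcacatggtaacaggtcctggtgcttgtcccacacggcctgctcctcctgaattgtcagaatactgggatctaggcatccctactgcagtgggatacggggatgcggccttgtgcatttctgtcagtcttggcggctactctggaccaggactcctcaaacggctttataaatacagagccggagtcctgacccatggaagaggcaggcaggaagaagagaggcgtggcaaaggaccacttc
Psmb5: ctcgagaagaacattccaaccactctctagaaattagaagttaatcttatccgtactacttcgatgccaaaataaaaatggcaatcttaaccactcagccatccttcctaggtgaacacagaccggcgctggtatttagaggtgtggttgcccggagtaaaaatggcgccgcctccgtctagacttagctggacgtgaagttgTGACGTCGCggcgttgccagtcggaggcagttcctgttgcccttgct
Psmb6: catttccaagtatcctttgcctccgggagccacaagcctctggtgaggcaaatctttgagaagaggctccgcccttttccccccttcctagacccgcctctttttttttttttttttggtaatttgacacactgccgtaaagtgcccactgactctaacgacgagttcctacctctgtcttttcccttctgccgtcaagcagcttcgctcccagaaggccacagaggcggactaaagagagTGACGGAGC
The match TGACGTCGC of Psmb5 begins 47 bases before the start, and the match TGACGGAGC of Psmb6 begins 9 bases before it. Psmb4 holds no such match in its window, and has instead, across its start, a match on the opposite strand to GAAANNGAA, part of the interferon-stimulated response element. That match begins 3 bases before the start and so is not fully within the line shown. A search of both strands from 250 bases before to 50 after the start covered the 36 members in the promoter table; Psmb1, Psmb2, Psmb7, Psmc3, Psmd3, Psmd7 and Psmg2 are not in it. TGACNNNGC occurred in 6 of the 36 (16.7%), namely Psmb5, Psmb6, Psmc6, Psmd9, Psmd12 and Psme4, against 14.0% of the 27025 genes in the table. GAAANNGAA occurred in 7 of 36 (19.4%) against 9.76% of all genes, among them Psme1. CCAAT, the NF-Y box, occurred in 12 of 36 (33.3%) against 41.1%, and TTCNNNGAA, the gamma-activated site, in 2 of 36 (5.56%) against 9.55%. These are matches of letters, and no test was made of them.

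The rest of the 20S core lay mostly below 0 in controls without passing the test. All 7 beta subunits had negative log2 fold changes in the authors' deposited table, with a median of -0.18, from -0.43 for Psmb5 to -0.06 for Psmb3. Psmb2 stood at -0.18 ± 0.06 (FDR = 0.0938) and Psmb1 at -0.13 ± 0.05 (FDR = 0.147) there. Psmb7, which carries the trypsin-like site, stood at -0.08 ± 0.06 (FDR = 0.354). Psmb5 and Psmb6 passed the test and Psmb7 did not, and the differences between the 3 catalytic subunits were not tested. In the alpha ring, which forms the gate of the barrel, 6 of 7 subunits lay below 0 (median -0.06), or 4 of 7 with the GC and length trend removed, from Psma2 at -0.11 ± 0.06 (FDR = 0.259) to Psma6 at 0.00 ± 0.08 (FDR = 0.980).

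The 17 members of the 19S particle were split in controls, and none passed the test. Of its 6 ATPases, 3 lay above and 3 below 0 in the authors' deposited table, from Psmc4 at -0.14 ± 0.07 (FDR = 0.189) to Psmc5 at 0.28 ± 0.12 (FDR = 0.144). Of its 11 non-ATPase subunits, 5 lay above and 6 below 0. The scaffold subunit Psmd3 was highest at 0.26 ± 0.08 (FDR = 0.0779), and Psmd8, a lid subunit, was lowest at -0.24 ± 0.08 (FDR = 0.0873) in the authors' deposited table. Over the 17 subunits of the particle, the median was -0.0024, next to -0.0027 for all genes.

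The assembly factors and activators gave no calls in controls. The 3 base assembly factors lay below 0 (median -0.22; 2 of 3 once the GC and length trend was removed), from Psmd9 at -0.22 ± 0.08 (FDR = 0.112) to Psmd10 at -0.03 ± 0.11 (FDR = 0.871) in the authors' deposited table. Among the 4 chaperones of core assembly, Psmg2 stood at -0.24 ± 0.10 (FDR = 0.167) and Psmg4 at 0.13 ± 0.17 (FDR = 0.658) there. Psme1, a subunit of the PA28 activator that opens the core, was the highest activator at 0.21 ± 0.08 (FDR = 0.101). Psme4, the PA200 activator, was the lowest at -0.16 ± 0.08 (FDR = 0.206). The inhibitor Psmf1 stood at 0.01 ± 0.08 (FDR = 0.968). Over all 43 genes, 29 lay below 0 (67.4%, against 50.5% of all genes) and 14 above (32.6%, against 49.5%), with a median of -0.06 and a range from -0.43 to 0.28. Removal of the GC and length trend brought the median to -0.02, next to -0.02 for all genes, with 24 below and 19 above 0.

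**Figure D2:**
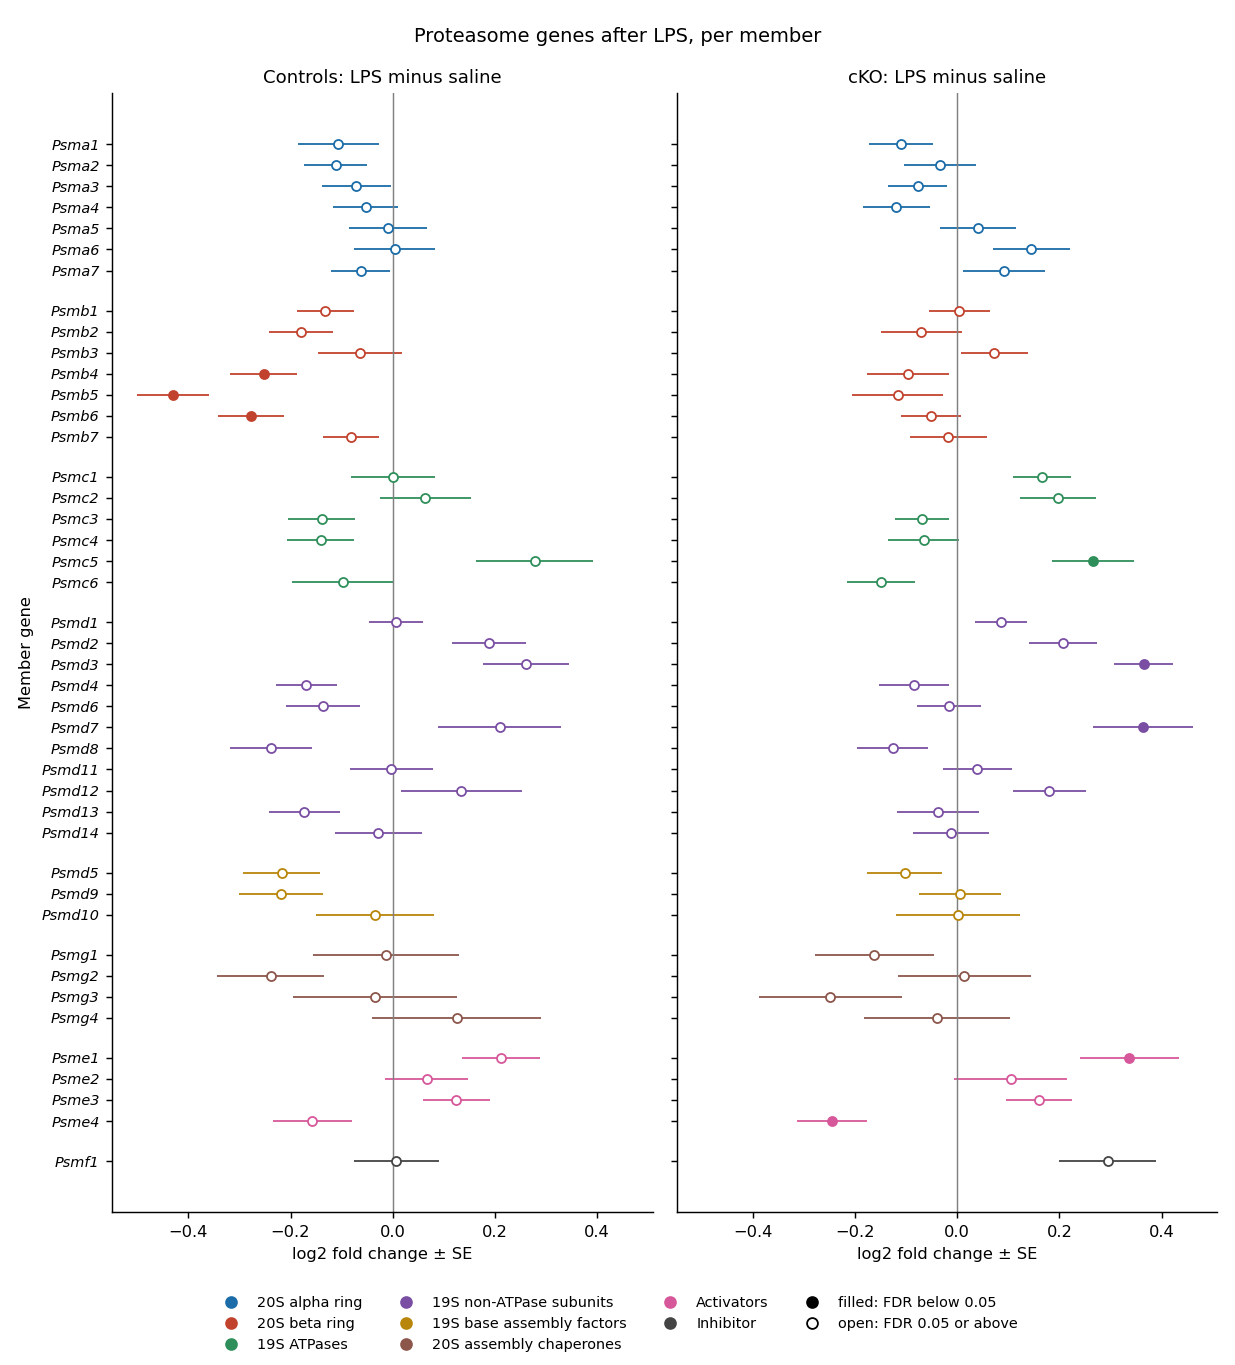
Log2 fold change after LPS (x axis, LPS minus saline, bars ± SE derived from F) of each of the 43 members (y axis), grouped and coloured by role, in controls (left) and cKO mice (right); filled points have an FDR below 0.05. In controls the filled points are Psmb4, Psmb5 and Psmb6, all below 0; in cKO mice they are Psmc5, Psmd3, Psmd7 and Psme1 above 0 and Psme4 below 0.

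In cKO cortex, other proteasome genes passed the test after LPS. According to the authors' deposited table for cKO mice, 4 of the 43 rose, the 19S subunits Psmd3 (ENSMUSG00000017221), Psmd7 (ENSMUSG00000039067) and Psmc5 (ENSMUSG00000020708) and the activator Psme1 (ENSMUSG00000022216). The activator Psme4 (ENSMUSG00000040850) was the only member that fell in that comparison. Among all genes, 10.9% rose and 8.52% fell. None of the 5 had passed in controls, so 0 of 43 members passed in both tables, against 725 of all genes (5.26%). Each of the 5 had the same sign in controls, and none passed for the difference of the LPS responses given below. An unadjusted p below 0.05 was given to 10 members above 0 and 2 below, against 19.1% and 16.7% of all genes.

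Psmd3, a scaffold subunit of the 19S lid, was estimated at 71.8 CPM in control saline, 86.0 CPM in control LPS, 69.2 CPM in cKO saline and 89.1 CPM in cKO LPS cortex. It was higher after LPS in both genotypes and rose in cKO mice by 0.36 ± 0.06 on the log2 scale, or 28.8%, in the authors' deposited table (FDR = 0.00669). Psmd7, the lid subunit that pairs with the deubiquitinase Psmd14, was estimated at 42.9, 49.6, 39.5 and 50.8 CPM in the same order. It rose in cKO mice by 0.36 ± 0.10 (FDR = 0.0309), while Psmd14 stood at -0.01 ± 0.07 (FDR = 0.917) in the authors' deposited table. The partners of this pair thus had different values, and the difference between them was not tested. Psmc5, an ATPase of the base, was estimated at 90.1, 109.2, 87.5 and 105.2 CPM, and rose in cKO mice by 0.27 ± 0.08 in the authors' deposited table (FDR = 0.0440). Its fold change was larger in controls, where its SE was larger too and it was not called.

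Psme1 was estimated at 18.0 CPM in control saline, 20.8 CPM in control LPS, 19.2 CPM in cKO saline and 24.2 CPM in cKO LPS cortex. It rose in cKO mice by 0.34 ± 0.10 in the authors' deposited table (FDR = 0.0388). Its partner in the PA28 ring, Psme2, stood at 0.10 ± 0.11 (FDR = 0.529), estimated at 13.0, 13.6, 12.6 and 13.6 CPM. Psme4, estimated at 75.9, 68.0, 75.2 and 63.4 CPM, fell in cKO mice by 0.25 ± 0.07 in the authors' deposited table (FDR = 0.0346). It was lower after LPS in both genotypes. With the trend over GC content and length removed, the calls of Psmc5 (adjusted p = 0.0687), Psme1 (adjusted p = 0.0977) and Psme4 (adjusted p = 0.0703) ended, and Psmd3 (0.25, adjusted p = 0.0230) and Psmd7 (0.36, adjusted p = 0.0358) passed.

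The 20S core had no call in cKO mice. Its 14 subunits had a median of -0.04, with Psmb5 lowest in the beta ring at -0.12 ± 0.09 (FDR = 0.375) and Psmb3 highest at 0.07 ± 0.07 (FDR = 0.455) in the authors' deposited table. Psmb6 stood at -0.05 ± 0.06 (FDR = 0.555) and Psmb4 at -0.10 ± 0.08 (FDR = 0.419) there. In the alpha ring, values ran from Psma4 at -0.12 ± 0.07 (FDR = 0.222) to Psma6 at 0.15 ± 0.08 (FDR = 0.201). Of the 17 subunits of the 19S particle, 9 lay above 0 (median 0.04). Psmc6 was the lowest ATPase at -0.15 ± 0.07 (FDR = 0.137; 0.06 with that trend removed) and Psmd8 the lowest non-ATPase subunit at -0.13 ± 0.07 (FDR = 0.223) in the authors' deposited table. Among the assembly factors, Psmg3 was lowest at -0.25 ± 0.14 (FDR = 0.233), Psmg2 the highest chaperone at 0.01 ± 0.13 (FDR = 0.947), Psmd5 the lowest base factor at -0.10 ± 0.07 (FDR = 0.343) and Psmd9 the highest at 0.01 ± 0.08 (FDR = 0.965). Psmf1, which is known to inhibit the core in vitro, stood at 0.30 ± 0.09, just outside the threshold (FDR = 0.0545). Over all 43 genes, 21 lay above 0 (48.8%, against 49.8% of all genes) and 22 below (51.2%, against 50.2%). Their median was -0.01 and their mean 0.03, and the median became 0.03 once the GC and length trend was removed, so the sign of the centre depended on the measure.

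Both LPS comparisons, which share no library, gave 34 of the 43 members the same sign (79.1%), near the 74.2% of all genes. Over the members, Pearson's r between the fold changes in controls and in cKO mice was 0.74 and Spearman's rho 0.704, against 0.676 and 0.63 over all genes. Within the 17 subunits of the 19S particle r was 0.933, and within the 14 of the 20S core it was 0.577. These are correlations across genes measured in the same libraries and are given as a description. The middle 50% of members lay between -0.15 and 0.01 in controls and between -0.08 and 0.13 in cKO mice, against -0.12 to 0.15 and -0.14 to 0.18 over all genes. The highest of the 43 fold changes was 0.36, and no member passed with a minimum fold change of 1.5 in either comparison. The share of all genes that passed with that minimum is not given here.

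**Figure D3:**
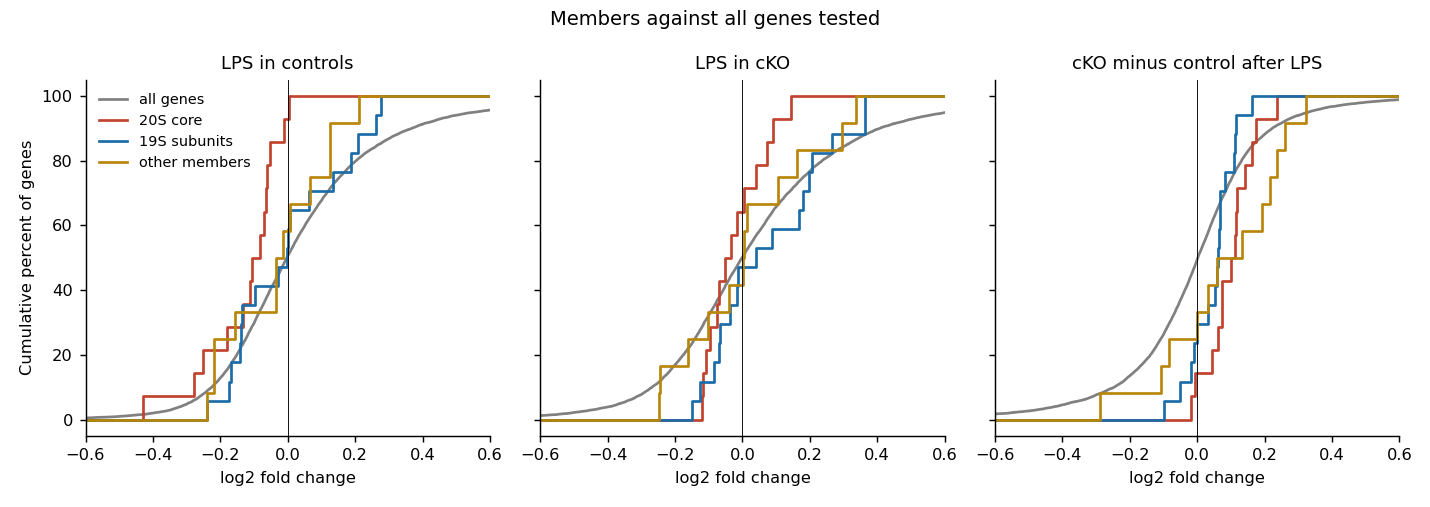
Cumulative percent of genes (y axis) with a log2 fold change at or below the value on the x axis, for all 13784 genes (grey), the 14 subunits of the 20S core (red), the 17 of the 19S particle (blue) and the other 12 members (gold), in the 3 comparisons; values beyond 0.6 in either direction lie outside the axes. In controls 13 of the 14 subunits of the 20S core lie below 0 (92.9%, against 50.5% of all genes). In the comparison of genotypes after LPS 12 of the 14 lie above 0 (85.7%, against 50.5% of all genes).

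Between genotypes after LPS, no proteasome gene passed the test in the authors' deposited table, where 0% of all genes were higher and 0.00725%, a single gene, lower in cKO mice. The authors' F test gave an unadjusted p below 0.05 for 5 members, all higher in cKO cortex, against 5.98% of all genes higher and 6.33% lower. They were the base assembly factor Psmd9 (0.32 ± 0.10, FDR = 0.291), the inhibitor Psmf1 (0.26 ± 0.09, FDR = 0.343), the catalytic subunits Psmb5 (0.24 ± 0.08, FDR = 0.313) and Psmb6 (0.17 ± 0.07, FDR = 0.382), and the activator Psme1 (0.24 ± 0.09, FDR = 0.345). Psmd9 was estimated at 18.7 CPM in control saline, 16.05 CPM in control LPS, 19.5 CPM in cKO saline and 19.6 CPM in cKO LPS cortex. Its control LPS group was thus the lowest of the 4, as for Psmb5 and Psmb6. Psmf1 was estimated at 27.8, 27.9, 26.5 and 32.5 CPM in the same order, with cKO LPS the highest.

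Of the 43 genes, 32 lay above 0 in this comparison (74.4%, against 50.5% of all genes) and 11 below (25.6%, against 49.5%), with a median of 0.07, or 0.04 with the GC and length trend removed, against 0.0016 for all genes. The beta ring had 7 of 7 subunits above 0 with and without that trend (median 0.12 with it), from Psmb7 and Psmb3 at 0.07 to Psmb5. In the alpha ring, values ran from -0.02 ± 0.07 for Psma4 (FDR = 0.935) to 0.16 ± 0.07 for Psma6 (FDR = 0.414) in the authors' deposited table. The ATPases ran from -0.10 ± 0.09 for Psmc6 (FDR = 0.688) to 0.16 ± 0.07 for Psmc1 (FDR = 0.411), and the non-ATPase subunits from -0.02 ± 0.07 for Psmd12 (FDR = 0.942) to 0.12 ± 0.08 for Psmd8 (FDR = 0.602). The core chaperones had the widest errors, with Psmg3 at -0.29 ± 0.21 (FDR = 0.604) and Psmg4 at 0.22 ± 0.22 (FDR = 0.714), and their estimated levels were at most 11.7 CPM. Psme4 was the lowest activator at -0.11 ± 0.07 (FDR = 0.576), and Psmd10 the lowest base factor at 0.06 ± 0.13 (FDR = 0.891). The 95% interval held 0 for 38 of the 43 genes. Over the 31 subunits of the 20S core and the 19S particle, the intervals ran from -0.31, the lower bound of Psmc6, to 0.41, the upper bound of Psmb5. This comparison uses the libraries of both groups given LPS, so its values are not independent of those after LPS in each genotype, and a low control LPS group enters both. The striatal markers given above moved in the same comparison by a median of 0.68, and their part in these values was not tested.

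**Figure D4:**
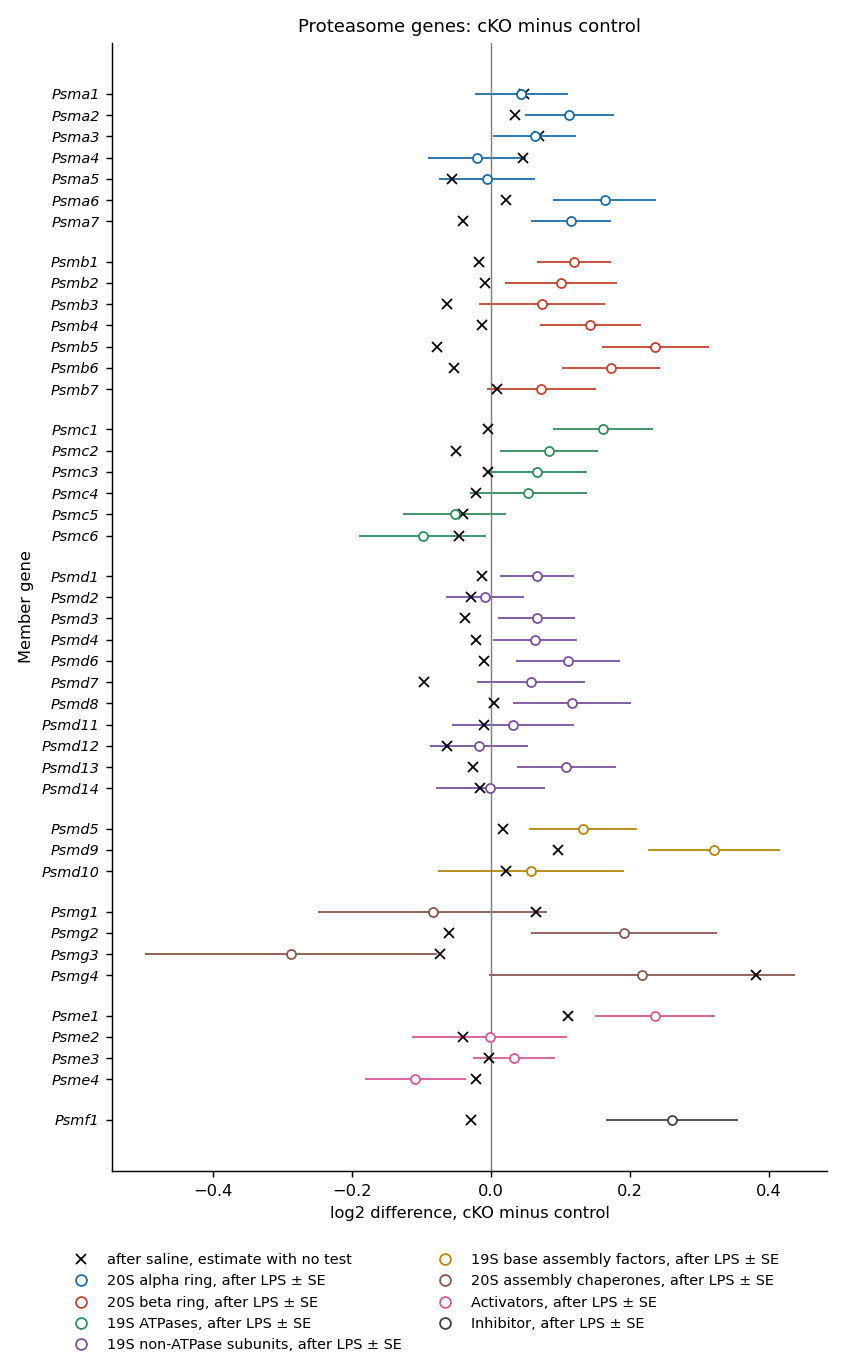
Log2 difference between cKO and control (x axis, cKO minus control) of each of the 43 members (y axis), after LPS (open circles coloured by role, bars ± SE derived from F) and after saline (crosses, estimates with no test). After LPS, 32 of the 43 circles lie above 0 and none has an FDR below 0.05; after saline 30 of the 43 crosses lie below 0, and all but that of Psmg4 (0.38) are between -0.10 and 0.11.

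The response to LPS itself was compared between genotypes as the difference of both log2 fold changes, and no member passed after adjustment over all genes. For 0% of all genes the difference was called above 0, and for 0.00725% below 0. An unadjusted p below 0.05 was found for 3 members, all above 0, against 3.02% of all genes above and 3.5% below. They were Psmb5 (0.31 ± 0.15, adjusted p = 0.725), Psmf1 (0.29 ± 0.14, adjusted p = 0.761) and Psmb6 (0.23 ± 0.11, adjusted p = 0.744). That Psmb4, Psmb5 and Psmb6 were called in controls and not in cKO mice is therefore not shown to be a difference between genotypes, nor are the calls made in cKO mice alone. Above 0 lay 34 of the 43 differences (79.1%, against 49.9% of all genes) and below it 9 (20.9%, against 50.1%), with a median of 0.08, among them 7 of 7 beta subunits and 11 of 11 non-ATPase subunits. Members of 1 complex measured in the same libraries are not independent, and no test of the list was made.

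After saline, the difference between genotypes is an estimate from the 3 fold changes, without a test. Its median over the 43 genes was -0.02, next to 0.0045 over all genes. It ran from -0.10 for Psmd7 to 0.38 for Psmg4, the member with the lowest level (2.994 CPM in control saline and 3.982 CPM in cKO saline cortex). The catalytic subunits Psmb5 and Psmb6 stood at -0.08 and -0.05. Of the 43 estimates, 13 lay above 0 (30.2%, against 52.7% of all genes), and all but that of Psmg4 were between -0.10 and 0.11, the value of Psme1. Taken from the back-calculated group levels instead, the median over the 43 genes was -0.03. Levels of a group given LPS differed between tables by up to 0.107 on the log2 scale. The estimates of single genes can therefore differ from the saline CPM given above, as for Psmb5 and Psmd7.

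Of the immunoproteasome subunits, which are not members, Psmb8 and Psmb10 were in the tables and Psmb9 was not. Psmb8, which can take the place of Psmb5, was estimated at 2.02 CPM in control saline, 3.34 CPM in control LPS, 2.13 CPM in cKO saline and 3.35 CPM in cKO LPS cortex. In the authors' deposited tables it rose in cKO mice by 0.65 ± 0.19 (FDR = 0.0433), and stood at 0.72 ± 0.24 in controls (FDR = 0.0853). Psmb10, estimated at 27.0, 23.7, 26.1 and 24.5 CPM in the same order, stood at -0.19 ± 0.11 in controls (FDR = 0.297) and -0.09 ± 0.06 in cKO mice (FDR = 0.327).

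Of 32 related genes of the ubiquitin-proteasome pathway, 30 were in the tables. In the authors' deposited table for controls, 1 of the 30 rose and 1 fell (3.33% each, against 6.46% and 3.31% of all genes). Nfe2l2, which encodes the stress-activated transcription factor NRF2, rose by 0.57 ± 0.11 (FDR = 0.0166), from an estimated 10.6 to 15.6 CPM. Sem1, a small subunit of the 19S lid whose symbol lies outside the pattern, fell by 0.28 ± 0.07 (FDR = 0.0399), from an estimated 30.6 to 25.2 CPM. In cKO mice 2 rose and 4 fell (6.67% and 13.3%, against 10.9% and 8.52% of all genes). Nfe2l2 rose there too, by 0.40 ± 0.11 (FDR = 0.0324), and Uchl5, a deubiquitinase bound to the 19S particle, rose by 0.52 ± 0.12 (FDR = 0.0196) in the authors' deposited table.

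The 4 related genes that fell in cKO mice act before or beside the proteasome. Uba6, a ubiquitin-activating enzyme, fell by 0.47 ± 0.09 (FDR = 0.00956), and Ubqln1, a shuttle that brings ubiquitinated proteins to the 19S particle, fell by 0.22 ± 0.05 (FDR = 0.0174) in the authors' deposited table. Ddi2, the protease that cleaves NRF1 into its active form, fell by 0.29 ± 0.07 (FDR = 0.0205), and Ngly1, the glycanase that processes NRF1, fell by 0.23 ± 0.06 (FDR = 0.0368). Nfe2l1 itself, estimated at 289 to 311 CPM in the 4 groups, stood at 0.05 ± 0.05 in controls (FDR = 0.576), 0.11 ± 0.05 in cKO mice (FDR = 0.154) and 0.04 ± 0.05 between genotypes after LPS (FDR = 0.791) in the authors' deposited tables. No related gene was called between genotypes after LPS or for the difference of the responses; an unadjusted p below 0.05 was found for 4 of the 30 in the former and 2 in the latter.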

How the data were processed

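RNA of mouse cortex was sequenced in 18 libraries, and 3 deposited tables of the authors' comparisons were used. The submitters' processing notes name edgeR 3.30.3, RSEM, STAR and cutadapt 3.5, and build GRCm39; the roles of these tools and the filter on genes are not given in the sources used here. Each row of the tables holds, per the file headers, the authors' p-value, FDR, F statistic (a score without an upper limit), log2 fold change and average log2 CPM of a gene. Per the labels, libraries came from ribosome-depleted RNA with a stranded kit. The tables hold 0 columns of values per library, so depth per library is unknown, no interval from counts could be given and no library could be left out.

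Fold changes were read as LPS minus saline and cKO minus control, because levels of the same group from different tables then differed by an SD over genes of 0.0537 and 0.0503; every other choice of signs raised 1 or both SDs to 0.222 or above. Group CPM were back-calculated from fold change, mean log2 CPM and group sizes, assuming libraries of equal weight; for members, levels of a group from 2 tables differed by up to 0.107 on the log2 scale. An SE is the absolute log2 fold change over the root of F; 95% intervals use the residual degrees of freedom that F and p imply (9.85, 9.76 and 8.66 for controls, cKO mice and genotypes). Recomputed Benjamini-Hochberg values matched the deposited FDR to within 3.18e-14. The difference of LPS responses was divided by its SE, from the normal quantiles of the deposited p-values (two-sided normal p, adjusted over 13784 genes); the calculation was tested on simulated data. GC content and length came from GENCODE M21 transcripts, found for 43 of 43 members.

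Named genes are members with an FDR below 0.05, the highest and lowest member of each role per comparison, members with an unadjusted p below 0.05 between genotypes, the immunoproteasome subunits, Nfe2l1 and called related genes; Psmb1, Psmb2, Psmb7, Psmd14 and Psme2 were added after their values were seen. The members and lists were chosen with earlier results of these data known. Python 3.11.15, numpy 2.4.6, pandas 2.3.3, scipy 1.17.1, statsmodels 0.14.6 and matplotlib 3.10.9 were used.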

Additional observations from a re-analysis of the deposited data

How the results depend on the processing

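Of the 43 members, 3 were called for LPS in controls; the count was 1 at an FDR below 0.01 (Psmb5), 8 at an FDR below 0.10 (1 above and 7 below 0) and 0 with a minimum fold change of 1.5. Of the 5 called for LPS in cKO mice, 2 were called after removal of the trend over GC content and length, 1 at an FDR below 0.01 (Psmd3), 9 at an FDR below 0.10 (8 above and 1 below 0) and 0 with a minimum fold change of 1.5. The shares of all genes under these other settings are not given here, so these counts show only how the calls depend on the setting. The count was 0 between genotypes after LPS and for the difference of the LPS responses under every alternative run, with the SE from F in the latter included. Filtering on a mean log2 CPM of at least 1, keeping rows with a symbol, centring on the median of all genes and taking members by role left each count within 1.5 times. The median over members moved by less than the median SE of a member under all alternatives run. That SE was larger than each median itself (0.077 against -0.063 in controls), so this mark would not show even a move to 0. Removal of the GC and length trend took the median from -0.063 to -0.022 in controls. It took the median from -0.013 to 0.031 in cKO mice and from 0.066 to 0.041 between genotypes after LPS. None of the 16 values of single members that were recomputed, those called or with an unadjusted p below 0.05 in a comparison of genotypes, changed sign. Among all 43 members, removal of the GC and length trend turned the sign of 7 in controls (values up to 0.0531 from 0), 6 in cKO mice (up to 0.149, Psmc6) and 2 between genotypes (up to 0.0438), none of them called. No paired analysis was possible because the tables hold no values per library, and for the same reason no replicate could be left out; whether 1 library decides a call is unknown. Levels of sex-linked genes differed between groups. Ddx3y stood at a log2 CPM of -7.19 in control saline and 3.68, 5.87 and 5.71 in control LPS, cKO saline and cKO LPS. Xist stood at 7.47, 7.33, 4.35 and 5.91 in the same order, and was not called in any comparison. Ddx3y and Uty were called after LPS in controls, the comparison in which Psmb4, Psmb5 and Psmb6 fell. The labels give neither sex nor batch, so any part of these in the results cannot be told apart from treatment and genotype.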

Other observations

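Ubb, a ubiquitin gene of the related list, was not called in any comparison. It was estimated at 940.8 CPM in control saline, 993.5 CPM in control LPS, 927.0 CPM in cKO saline and 1040.0 CPM in cKO LPS cortex, and stood at 0.08 ± 0.07 after LPS in controls (FDR = 0.489) and 0.17 ± 0.08 in cKO mice (FDR = 0.156) in the authors' deposited tables. Rps27a, a fusion of ubiquitin with a ribosomal protein, stood at 0.17 ± 0.06 between genotypes after LPS (FDR = 0.334) in the authors' deposited table. In the same table Ddi2 stood at -0.30 ± 0.08 (FDR = 0.282), Uba6 at -0.28 ± 0.11 (FDR = 0.382) and Mafg, a small partner of NRF1 and NRF2 on DNA, at -0.21 ± 0.07 (FDR = 0.334); these 4 related genes, chosen here after their values were seen, had an unadjusted p below 0.05 and none passed the adjustment. Of the other genes of the complex outside the symbol pattern, 8 of 10 lay below 0 after LPS in controls (median -0.10) and 7 of 10 in cKO mice (median -0.07). Among all genes, 50.5% and 50.2% lay below 0. With the GC and length trend removed, the medians of the 10 were -0.07 in controls and 0.02 in cKO mice. Among them, Txnl1 stood at -0.21 ± 0.07 in both genotypes (FDR = 0.0766 in controls and 0.0781 in cKO mice), and Pomp, the chaperone of core maturation, at -0.09 ± 0.07 (FDR = 0.392) and -0.01 ± 0.08 (FDR = 0.954) in the authors' deposited tables.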
